A study of Mus musculus with 8 samples.

Results

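The genes that copy DNA during S phase were examined in whole brains of E14.5 mouse embryos. The 51 members were chosen by gene symbol from a list of proteins that act at the replication fork or license it, supply its nucleotides, turn it on or package its product, with no cut on a measured value. Earlier results of these data were known when the members were chosen, so shares set against all genes are not independent of the data. All 51 were found among the 33971 genes of the authors' count table. They fall into 10 roles, from the licensing of origins to the assembly of new chromatin.

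Polyadenylated RNA was sequenced in bulk from 4 brains of embryos whose dams ate a choline-deficient diet (CDD) and from 4 brains of embryos whose dams ate a normal diet (ND). Both parents and all embryos were wild-type (WT), and the diets began on the day of mating. The study set up this experiment to ask whether a lack of choline changes the embryonic brain in the way that loss of the choline transporter gene *Mfsd7c* does. The labels and methods do not give the number of dams or litters, nor the sex of the embryos, so p-values measure the spread between these 8 samples.

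Replication begins at origins, where the origin recognition complex, *Cdc6* and *Cdt1* load the ring-shaped MCM2-7 helicase onto DNA during G1. At the start of S phase *Cdc45* and the GINS complex join the ring, and polymerase alpha with primase, polymerase delta and polymerase epsilon follow the opened fork. Polymerases delta and epsilon work with the PCNA clamp. In the embryonic brain this machinery runs in the dividing progenitors along the ventricles, whereas neurons no longer replicate their DNA. Because whole brains were sequenced in bulk, more cells in S phase and more RNA per such cell cannot be told apart.

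Library totals ran from 31770217 to 43121170 reads on genes, and a member had from 60 (*Fen1*) to 5783 reads (*Mcm7*) in a brain. Every pair of brains differed by more than sampling noise (lowest chi-square over degrees of freedom 3.76). Markers of neurons and of neural progenitors were found in every brain. CDD replicate 2 stood apart in a list of 6 caudal Hox genes, which mark hindbrain and spinal cord levels of the embryo. They summed to 75.9 CPM there and to at most 0.03 CPM in each of the other 7 brains. The count of called members is therefore also given without this brain. The summed levels and the marker counts below include it and are not given without it. Expression is given as CPM, the count scaled to a common TMM-adjusted library size, and as the authors' FPKM where genes of different length are set side by side.

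Of the 51 replication genes, 20 were higher in CDD brains and 0 were lower. In edgeR's quasi-likelihood test, these 20 (39.2%) passed an adjusted p under 0.05, whereas over all 19367 genes tested 822 (4.24%) were higher and 888 (4.59%) lower, 8.83% in all. The rises were small: the 20 called members rose by 11.8% to 38.1%. The median log2 fold change of the 51 was 0.17, against 0.00 (-0.00378) over all genes, with 49 members above 0 and 2 below. At an unadjusted p under 0.05, 31 members were higher and 0 lower, where 11.8% of all genes were higher. In 22 members every CDD brain was above every ND brain (7.65% of all genes), and in 0 members every CDD brain was below (7.39%). The summed level of all 51 was 2128, 2017, 2002 and 2127 CPM in CDD brains 1 to 4 and 1797, 1902, 1765 and 1774 CPM in ND brains 1 to 4. The sums did not overlap. The count rested in part on single brains, being 13 without CDD replicate 1, 12 without ND replicate 1, 9 without ND replicate 3 and 9 without ND replicate 4, with 0 lower in each. Over all genes the share called higher also shrank in those fits. It was 3.13% without CDD replicate 1 and 1.52% without ND replicate 1, where 25.5% and 23.5% of members were called. It was 1.04% without ND replicate 3 and 1.42% without ND replicate 4, where 17.6% of members were called. Without CDD replicate 2, 20 members were called, with *Lig1* lost and *Cdc45* gained, and 3.15% of all genes were higher. No member reached a change of 1.5-fold.

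**Figure D1:**
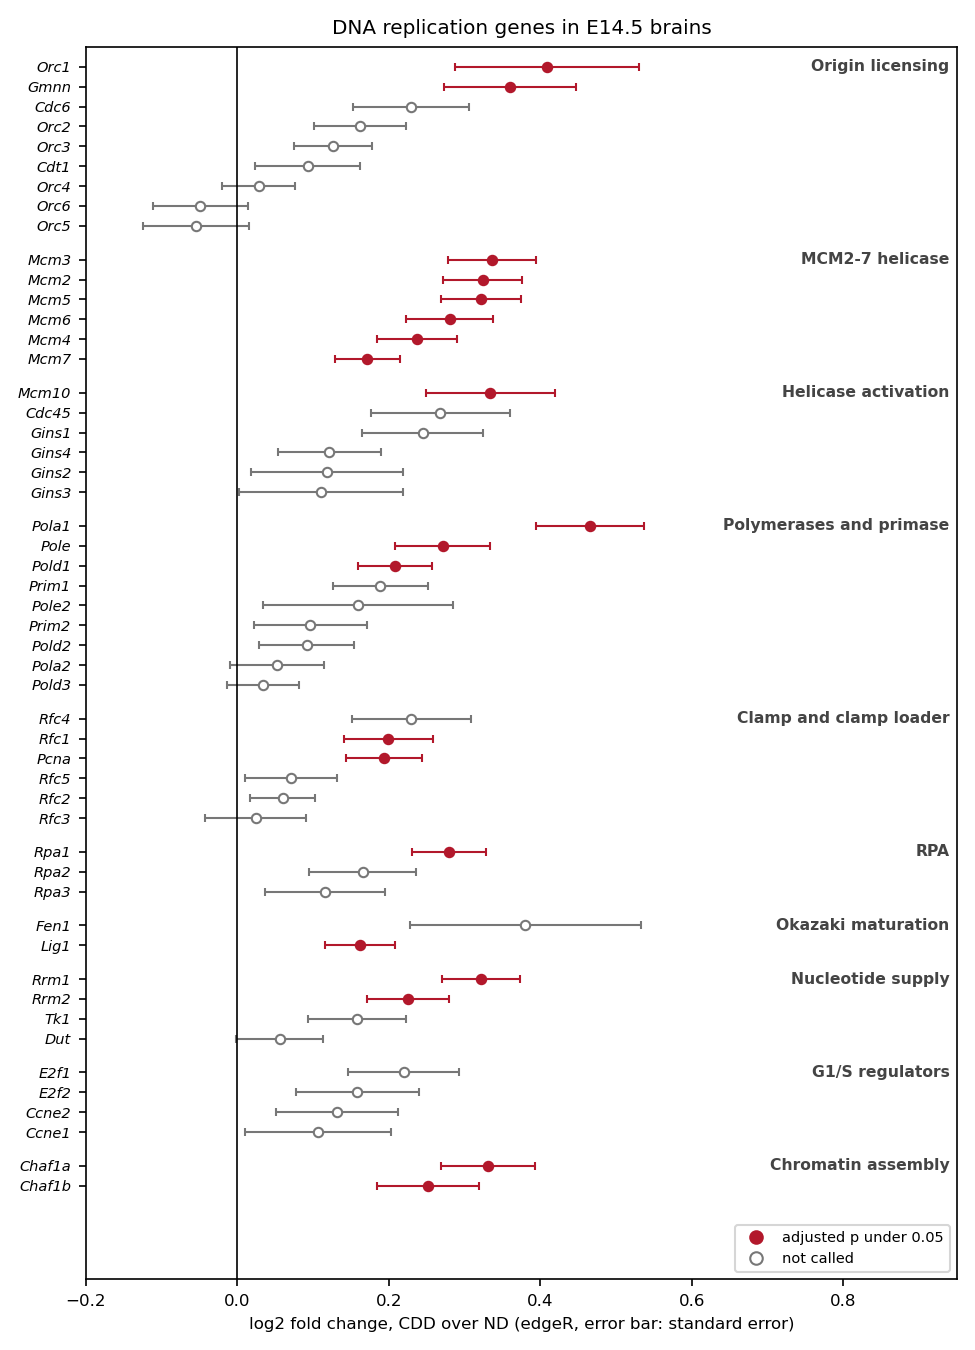
Log2 fold change of CDD over ND brains (x axis) for each of the 51 members (y axis, grouped by role), from edgeR's test with 4 brains a diet; bars are standard errors and filled points passed an adjusted p under 0.05. Points lie from -0.06 for *Orc5* to 0.47 for *Pola1*, all 6 MCM2-7 genes are filled, and none of the G1/S regulators is.

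**Figure D2:**
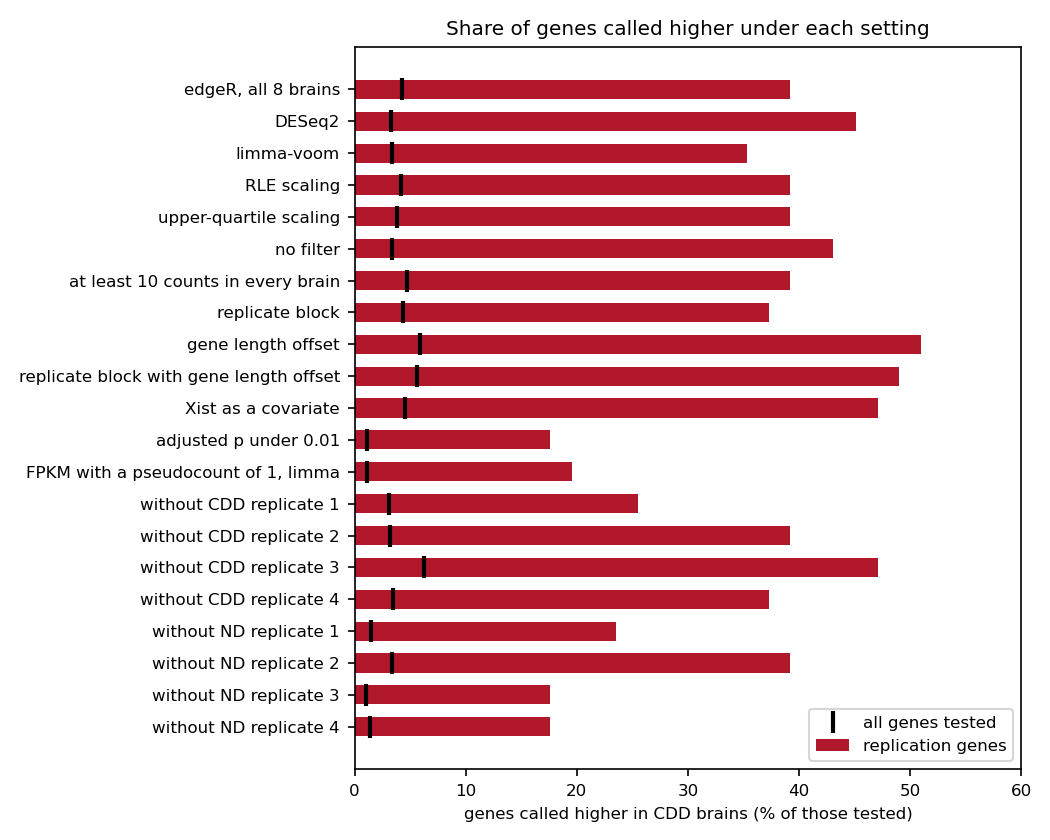
Share of genes called higher in CDD brains (x axis, percent of those tested) under each setting (y axis); bars are the 51 members and black ticks all genes tested. Bars run from 17.6% to 51.0% and end to the right of the tick in every setting shown; the threshold of 1.5-fold, at which 0 members were called, is not drawn.

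The stretch just before the start site is shown for 3 members that rose, because these hold letters known as binding motifs of the E2F family, the transcription factors that switch on replication genes. They are the called members whose 170 bases before the start hold an E2F-type string and no annotated exon (RefSeq windows on GRCm38.p6, exons of GENCODE M21), so that *Orc1* and *Mcm7*, whose stretches cross exons, are left out. Capitals mark the E2F-type strings and each CCAAT box, the motif of the factor NF-Y, read as CCAAT or, on the other strand, ATTGG. The stretches run 5′ to 3′ on the strand of the gene and end at the base before its start: *Mcm5* at chr8:75109339-75109508 (plus strand), *Mcm6* at chr1:128359706-128359875 (minus strand) and *Pola1* at chrX:93632156-93632325 (minus strand).
Mcm5: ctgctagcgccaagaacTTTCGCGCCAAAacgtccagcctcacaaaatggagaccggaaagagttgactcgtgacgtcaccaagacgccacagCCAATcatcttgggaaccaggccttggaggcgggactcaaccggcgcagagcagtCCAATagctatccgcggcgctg
Mcm6: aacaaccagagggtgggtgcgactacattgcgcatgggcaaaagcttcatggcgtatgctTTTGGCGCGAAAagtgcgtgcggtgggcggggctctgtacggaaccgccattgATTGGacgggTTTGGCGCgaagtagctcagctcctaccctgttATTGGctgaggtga
Pola1: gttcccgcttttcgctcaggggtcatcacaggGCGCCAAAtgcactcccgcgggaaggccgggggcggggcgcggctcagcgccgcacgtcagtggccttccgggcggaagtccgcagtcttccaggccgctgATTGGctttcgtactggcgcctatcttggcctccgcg
In *Mcm5* and *Mcm6* a pair of E2F-type strings on opposite strands overlaps into one longer run of capitals. Each of these genes has at least 1 CCAAT box within the same 170 bases, and no CCAAT box overlaps an E2F-type string there.

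The MCM2-7 ring unwinds DNA ahead of the polymerases, and all 6 of its subunit genes were higher in CDD brains without overlap between the diets. Their median log2 fold change was 0.30. *Mcm2* (ENSMUSG00000002870, chr6:88860456-88875762, on a build the authors do not name, as for every gene position here) had 85.0, 78.4, 82.5 and 86.7 CPM in CDD brains 1 to 4 and 67.7, 72.6, 61.4 and 64.1 CPM in ND brains 1 to 4. The lowest CDD brain stood above the highest ND brain, ND replicate 2. It averaged 83.2 ± 3.63 CPM in CDD brains and 66.4 ± 4.83 CPM in ND brains (mean ± SD, n = 4 each), a log2 fold change of 0.32 (SE 0.05, edgeR adjusted p = 0.00156). *Mcm3* (ENSMUSG00000041859, chr1:20873192-20890536) had 63.2, 57.8, 62.3 and 63.0 CPM in CDD brains 1 to 4 and 47.8, 55.0, 46.7 and 45.7 CPM in ND brains 1 to 4. ND replicate 2 was again the ND brain nearest to the CDD group, and CDD replicate 2 the CDD brain nearest to the ND group. *Mcm3* averaged 61.6 ± 2.55 CPM in CDD brains and 48.8 ± 4.20 CPM in ND brains (mean ± SD, n = 4 each), a log2 fold change of 0.34 (SE 0.06, edgeR adjusted p = 0.00229). *Mcm5* (ENSMUSG00000005410, chr8:75836197-75855067), one of the genes whose promoter is printed, had 70.0, 69.8, 67.8 and 77.1 CPM in CDD brains 1 to 4 and 55.9, 61.9, 54.4 and 55.6 CPM in ND brains 1 to 4. CDD replicate 4 was the highest brain and ND replicate 3 the lowest. *Mcm5* averaged 71.2 ± 4.05 CPM in CDD brains and 56.9 ± 3.35 CPM in ND brains (mean ± SD, n = 4 each), a log2 fold change of 0.32 (SE 0.05, edgeR adjusted p = 0.00164). The other subunits rose by less: the log2 fold change was 0.28 for *Mcm6* (edgeR adjusted p = 0.00693), 0.24 for *Mcm4* (edgeR adjusted p = 0.00983) and 0.17 for *Mcm7* (edgeR adjusted p = 0.0189). The calls of *Mcm2*, *Mcm3*, *Mcm5* and *Mcm6* held with each of the 8 brains left out. The call of *Mcm4* was lost without ND replicate 4 (adjusted p = 0.0582) and that of *Mcm7* without CDD replicate 1 or ND replicate 1, 3 or 4 (adjusted p = 0.0529 to 0.0938).

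Per length, the subunits of the ring were not at equal levels, from 10.7 FPKM for *Mcm2* to 28.1 FPKM for *Mcm7* as means over the 8 brains. The subunit with the highest level thus had the smallest log2 fold change of the 6 and the one with the lowest level the second largest. The ratio of the FPKM of *Mcm2* to that of *Mcm7* lay between 0.389 and 0.433 in CDD brains and between 0.332 and 0.387 in ND brains. The ratios did not overlap between the diets. Exons of *Mcm7* share 12.6% of their bases with other genes in GENCODE M21, and 7.16% of its 100-base strings also stand in *Gm5487*, so part of its count is uncertain.

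**Figure D3:**
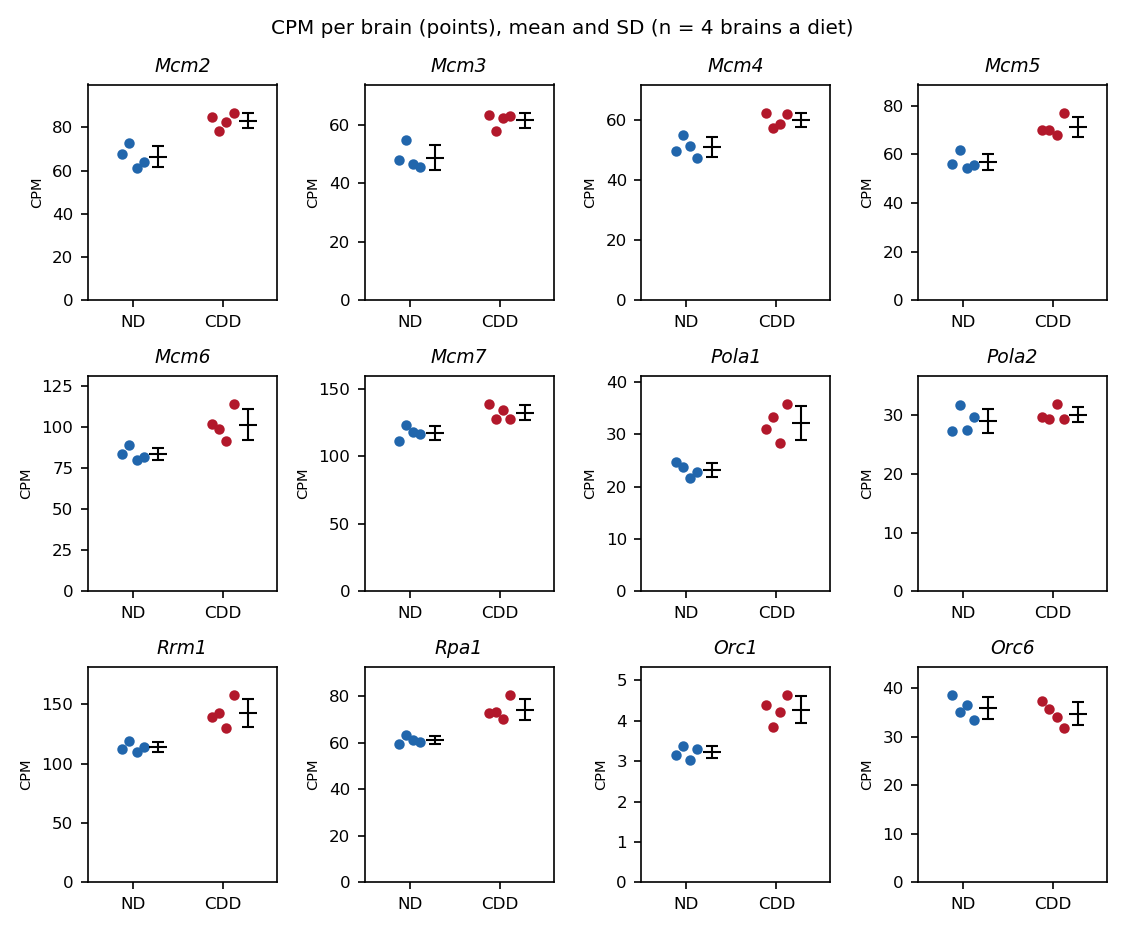
CPM (y axis, from 0) in each ND and CDD brain (x axis) for the 6 MCM2-7 genes and 6 further members; each point is a brain, and the mark with its bar beside the points is the mean and SD of the 4 brains. The diets do not overlap for the MCM2-7 genes, *Pola1*, *Rrm1*, *Rpa1* and *Orc1*, and do for *Pola2* and *Orc6*.

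Among the 9 genes that license origins, 2 rose in CDD brains, *Orc1* and *Gmnn*, and 5 of the 9 were higher at an unadjusted p under 0.05. The median log2 fold change of the 9 was 0.13. *Gmnn* (ENSMUSG00000006715, chr13:24935828-24945906) encodes geminin, which binds *Cdt1* and blocks a further round of licensing. It had 10.3, 9.16, 10.9 and 9.56 CPM in CDD brains 1 to 4 and 7.96, 7.63, 7.55 and 8.06 CPM in ND brains 1 to 4. CDD replicate 3 was the highest brain, and the diets did not overlap. It averaged 9.996 ± 0.795 CPM in CDD brains and 7.80 ± 0.249 CPM in ND brains (mean ± SD, n = 4 each), a log2 fold change of 0.36 (SE 0.09, edgeR adjusted p = 0.0157), and the call was lost without ND replicate 3 (adjusted p = 0.0682). *Orc1* (ENSMUSG00000028587, chr4:108436620-108472030), the subunit of the origin recognition complex that comes and goes with the cell cycle, had 4.38, 3.85, 4.23 and 4.65 CPM in CDD brains 1 to 4 and 3.16, 3.38, 3.04 and 3.30 CPM in ND brains 1 to 4. All CDD brains were above all ND brains, with CDD replicate 4 the highest. *Orc1* averaged 4.28 ± 0.330 CPM in CDD brains and 3.22 ± 0.152 CPM in ND brains (mean ± SD, n = 4 each), a log2 fold change of 0.41 (SE 0.12, edgeR adjusted p = 0.0412). This call was near the threshold and was lost without CDD replicate 1 or 4 or ND replicate 1, 2, 3 or 4 (adjusted p = 0.0542 to 0.14), with no filter on low counts (adjusted p = 0.0564), with the replicate number as a block (adjusted p = 0.059) and on FPKM with limma (adjusted p = 0.0602).

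The other subunits of the origin recognition complex did not pass the test. Their log2 fold changes were 0.16 for *Orc2*, 0.13 for *Orc3*, 0.03 for *Orc4*, -0.06 for *Orc5* and -0.05 for *Orc6*, the last 2 being the members below 0 (edgeR adjusted p = 0.694 and 0.697). *Orc6* had 37.3, 35.7, 34.0 and 31.8 CPM in CDD brains 1 to 4 and 38.6, 35.1, 36.5 and 33.4 CPM in ND brains 1 to 4. The brains of the diets were mixed for *Orc6*, the highest being ND replicate 1 and the lowest CDD replicate 4. By length, *Orc1* was at 1.07 FPKM and *Orc6* at 14.2 FPKM over the 8 brains, the lowest and the highest of the complex. The ratio of *Orc1* to *Orc6* in FPKM was between 0.0766 and 0.104 in CDD and between 0.0581 and 0.0702 in ND brains, with no overlap. *Orc1* had the largest log2 fold change of the complex and *Orc6* one below 0, so this ratio repeats that difference. Such ratios did overlap between the diets for *Pola1* to *Pola2*, *Mcm10* to *Gins2*, *E2f1* to *E2f2* and *Ccne1* to *Ccne2*. The loading factors *Cdc6* and *Cdt1* had log2 fold changes of 0.23 and 0.09 (edgeR adjusted p = 0.0689 and 0.452). For *Cdc6* the diets did not overlap, with 12.1, 11.8, 11.96 and 12.6 CPM in CDD and 10.2, 11.3, 10.2 and 9.71 CPM in ND brains 1 to 4, and it passed the threshold with a gene length offset. *Orc2* did not overlap either, although 29.8% of its exonic bases are shared with *Nif3l1* on the other strand.

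Of the 6 genes that turn the loaded ring into a moving helicase, *Mcm10* rose. The median log2 fold change of the 6 was 0.18 and all were above 0. *Mcm10* (ENSMUSG00000026669, chr2:4994525-5017602), which helps to activate the helicase at origins, had 19.0, 17.8, 15.03 and 19.8 CPM in CDD brains 1 to 4 and 14.8, 14.6, 14.49 and 12.8 CPM in ND brains 1 to 4. CDD replicate 3 lay just above the ND brains, and ND replicate 4 was the lowest. It averaged 17.9 ± 2.09 CPM in CDD brains and 14.2 ± 0.908 CPM in ND brains (mean ± SD, n = 4 each), a log2 fold change of 0.33 (SE 0.08, edgeR adjusted p = 0.0199), with the call lost without CDD replicate 1 or ND replicate 3 or 4 (adjusted p = 0.0575 to 0.0862). *Cdc45*, the partner that joins the ring, had a log2 fold change of 0.27 with a standard error of 0.09 (edgeR adjusted p = 0.0748). CDD replicate 2, at 11.4 CPM, lay within the ND range for *Cdc45*, and without this brain the log2 fold change was 0.36 (edgeR adjusted p = 0.00913). The GINS complex holds *Cdc45* to the ring, and its genes *Gins1*, *Gins2*, *Gins3* and *Gins4* had log2 fold changes of 0.24, 0.12, 0.11 and 0.12. *Gins1* came nearest to the threshold of the 4 (edgeR adjusted p = 0.0636), passed it with DESeq2 (adjusted p = 0.0419), and had no overlap between the diets. *Gins2* shares 67.3% of its exonic bases with *Gse1* on the other strand, which limits what its count says.

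The polymerases were uneven: the catalytic subunit genes of polymerases alpha, delta and epsilon rose, and the other 6 genes of this role did not pass the test. *Pola1* (ENSMUSG00000006678, chrX:92348373-92675761), the catalytic subunit of polymerase alpha, which starts each new strand with primase, had 31.0, 33.2, 28.3 and 35.8 CPM in CDD brains 1 to 4 and 24.7, 23.7, 21.6 and 22.8 CPM in ND brains 1 to 4. All ND brains lay below the lowest CDD brain, CDD replicate 3. It averaged 32.1 ± 3.20 CPM in CDD brains and 23.2 ± 1.31 CPM in ND brains (mean ± SD, n = 4 each), a log2 fold change of 0.47 (SE 0.07, edgeR adjusted p = 0.00116). This was the largest log2 fold change among the 51 members. Its call held with each brain left out, with an adjusted p of at most 0.0119. *Pola2*, the accessory subunit of the same enzyme, had 29.7, 29.3, 32.0 and 29.5 CPM in CDD brains 1 to 4 and 27.4, 31.7, 27.5 and 29.7 CPM in ND brains 1 to 4. These brains were interleaved and their log2 fold change was 0.05 (SE 0.06, edgeR adjusted p = 0.668). The ratio of *Pola1* to *Pola2* in FPKM was between 0.832 and 1.14 in CDD brains and between 0.704 and 0.850 in ND brains, so that CDD replicate 3 lay within the ND range. *Pold1*, the catalytic subunit of polymerase delta, had a log2 fold change of 0.21 (edgeR adjusted p = 0.0131) and *Pole*, that of polymerase epsilon, one of 0.27 (edgeR adjusted p = 0.0121). Both were without overlap between the diets. The call of *Pold1* was lost without ND replicate 1, 3 or 4 (adjusted p = 0.0562 to 0.0624) and that of *Pole* without ND replicate 3 or 4 (adjusted p = 0.0542 to 0.066).

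The accessory polymerase genes *Pold2*, *Pold3* and *Pole2* had log2 fold changes of 0.09, 0.03 and 0.16 (edgeR adjusted p = 0.408, 0.727 and 0.481). Of the primase genes, *Prim1*, the catalytic subunit, had one of 0.19 (edgeR adjusted p = 0.0664) and *Prim2*, the large subunit, one of 0.10 (edgeR adjusted p = 0.47). *Prim1* passed the threshold with DESeq2 (adjusted p = 0.0396) and with a gene length offset (adjusted p = 0.0317). In *Pold3* the 4 CDD brains were within 60.3 to 61.7 CPM, inside the ND range of 57.0 to 64.1 CPM. Whether the catalytic and accessory genes differ in their response was not tested.

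The sliding clamp and its loader had 2 called members of 6, *Pcna* and *Rfc1*, and a median log2 fold change of 0.13. *Pcna* (ENSMUSG00000027342, chr2:132091082-132095234) encodes the ring on DNA that polymerases delta and epsilon work with. At 31.6 FPKM over the 8 brains it had the highest level per length of the 51 members. It had 86.8, 78.6, 76.2 and 83.7 CPM in CDD brains 1 to 4 and 73.1, 75.0, 67.1 and 69.1 CPM in ND brains 1 to 4. Each CDD brain was above each ND brain, by little for CDD replicate 3 and ND replicate 2. It averaged 81.3 ± 4.78 CPM in CDD brains and 71.1 ± 3.61 CPM in ND brains (mean ± SD, n = 4 each), a log2 fold change of 0.19 (SE 0.05, edgeR adjusted p = 0.0224), and the call was lost without CDD replicate 1 or ND replicate 1, 3 or 4 (adjusted p = 0.0546 to 0.12). Of the 100-base strings of *Pcna*, 17.8% also stand in the pseudogene *Pcna-ps2*. *Rfc1*, the large subunit of the clamp loader, had a log2 fold change of 0.20 (edgeR adjusted p = 0.0401), lost without CDD replicate 1 or 4 or ND replicate 1, 2, 3 or 4 (adjusted p = 0.0602 to 0.147) and with limma-voom (adjusted p = 0.0628). The small loader subunits *Rfc2*, *Rfc3*, *Rfc4* and *Rfc5* had log2 fold changes of 0.06, 0.02, 0.23 and 0.07 and did not pass the test. *Rfc4* was the nearest of them (edgeR adjusted p = 0.0748) and passed it with a gene length offset (adjusted p = 0.0306). In *Rfc3* and *Rfc5* CDD replicate 1 was the highest and CDD replicate 4 the lowest of all 8 brains.

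RPA coats the single strand that the helicase exposes, and 1 of its 3 genes rose. *Rpa1* (ENSMUSG00000000751, chr11:75188992-75239150), the large DNA-binding subunit, had 72.9, 73.1, 70.1 and 80.7 CPM in CDD brains 1 to 4 and 59.4, 63.3, 61.3 and 60.5 CPM in ND brains 1 to 4. The ND brains were close together and all lay below the CDD brains, of which CDD replicate 4 was the highest. It averaged 74.2 ± 4.56 CPM in CDD brains and 61.1 ± 1.65 CPM in ND brains (mean ± SD, n = 4 each), a log2 fold change of 0.28 (SE 0.05, edgeR adjusted p = 0.00251), and the call held with each brain left out. *Rpa2* and *Rpa3* had log2 fold changes of 0.17 and 0.12 (edgeR adjusted p = 0.153 and 0.406), with ND replicate 2 inside the CDD range for both. Of the 100-base strings of *Rpa3*, 9.28% are shared with *Gm6195*.

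Of the 2 genes that finish Okazaki fragments, the short pieces of the lagging strand, *Lig1* was called. *Lig1* (ENSMUSG00000056394, chr7:13011239-13045350), the ligase that seals them, had 79.1, 79.0, 74.5 and 83.2 CPM in CDD brains 1 to 4 and 69.0, 74.6, 69.3 and 69.4 CPM in ND brains 1 to 4. The diets touched here, since ND replicate 2 lay just above CDD replicate 3, whereas the other ND brains lay together below. It averaged 79.0 ± 3.57 CPM in CDD brains and 70.6 ± 2.69 CPM in ND brains (mean ± SD, n = 4 each), a log2 fold change of 0.16 (SE 0.05, edgeR adjusted p = 0.0352). This was the called member with the smallest log2 fold change, and its call was lost without CDD replicate 1, 2 or 4 or ND replicate 1, 3 or 4 (adjusted p = 0.0603 to 0.14) and with limma-voom (adjusted p = 0.0511). *Fen1*, the flap nuclease that trims the fragments, had 2.54, 2.32, 2.93 and 2.90 CPM in CDD brains 1 to 4 and 1.84, 1.88, 2.14 and 2.35 CPM in ND brains 1 to 4. CDD replicate 2 lay below ND replicate 4, and the log2 fold change of 0.38 came with the largest standard error of the 51 members, 0.15 (edgeR adjusted p = 0.128). *Fen1* had the fewest reads and, at 0.970 FPKM, the lowest level per length of the members. In GENCODE M21, 84.2% of its exonic bases overlap *Tmem258* and *Gm10143*, and whether the counting used strand is not stated.

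Among the 4 members of nucleotide supply, *Rrm1* and *Rrm2* of ribonucleotide reductase, which makes the deoxynucleotides, were higher in CDD brains. *Rrm1* (ENSMUSG00000030978, chr7:102090902-102118978), the large subunit, had 139, 143, 129.7 and 158 CPM in CDD brains 1 to 4 and 113, 119, 109 and 114 CPM in ND brains 1 to 4. The groups were apart, with CDD replicate 4 above the other CDD brains. It averaged 142 ± 11.7 CPM in CDD brains and 114 ± 4.11 CPM in ND brains (mean ± SD, n = 4 each), a log2 fold change of 0.32 (SE 0.05, edgeR adjusted p = 0.00156), and its call held with each brain left out. *Rrm2*, the small subunit, had a log2 fold change of 0.23 (edgeR adjusted p = 0.0153), also without overlap, and its call was lost without ND replicate 1, 3 or 4 (adjusted p = 0.0549 to 0.0819). CDD replicate 1 was the highest for *Rrm2*, at 91.3 CPM. By length *Rrm2* stood above *Rrm1*, at 27.6 against 11.6 FPKM over the 8 brains. *Tk1*, the thymidine kinase of S phase, and *Dut*, which removes dUTP, had log2 fold changes of 0.16 and 0.06 (edgeR adjusted p = 0.137 and 0.609).

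None of the 4 G1/S regulators was called, and 1 of them, *E2f1*, was higher at an unadjusted p under 0.05. *E2f1* (ENSMUSG00000027490, chr2:154401327-154411812), the transcription factor that turns on many of the genes above, had 30.8, 28.1, 26.3 and 26.4 CPM in CDD brains 1 to 4 and 21.2, 26.8, 24.6 and 23.3 CPM in ND brains 1 to 4. The diets overlapped because ND replicate 2 lay above CDD replicates 3 and 4. It averaged 27.9 ± 2.10 CPM in CDD brains and 24.0 ± 2.34 CPM in ND brains (mean ± SD, n = 4 each), a log2 fold change of 0.22 (SE 0.07, edgeR adjusted p = 0.0688). *E2f1* passed the threshold with DESeq2 (adjusted p = 0.0434), with a gene length offset (adjusted p = 0.0285) and without ND replicate 2 (edgeR adjusted p = 0.0331). *E2f2*, of the same family, and the cyclin E genes *Ccne1* and *Ccne2*, which activate the kinase at S phase entry, had log2 fold changes of 0.16, 0.11 and 0.13 (edgeR adjusted p = 0.249, 0.552 and 0.341). These did not pass the test under any setting run.

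Both members of this last role, *Chaf1a* and *Chaf1b* of chromatin assembly factor 1, which places histones on new DNA at the clamp, were higher in CDD brains. *Chaf1a* (ENSMUSG00000002835, chr17:56347439-56379289), the large subunit, had 33.0, 30.8, 32.4 and 35.9 CPM in CDD brains 1 to 4 and 25.7, 28.3, 25.0 and 26.1 CPM in ND brains 1 to 4. No CDD brain reached down to the ND brains, and CDD replicate 4 was the highest. It averaged 33.0 ± 2.14 CPM in CDD brains and 26.3 ± 1.43 CPM in ND brains (mean ± SD, n = 4 each), a log2 fold change of 0.33 (SE 0.06, edgeR adjusted p = 0.00378), and the call held with each brain left out. Because 52.5% of the exonic bases of *Chaf1a* lie over *Ubxn6* on the other strand, part of this count may belong to that gene. *Chaf1b*, the middle subunit, had no such overlap and a log2 fold change of 0.25 (edgeR adjusted p = 0.0259), with 19.5 ± 0.883 CPM in CDD brains and 16.4 ± 0.865 CPM in ND brains (mean ± SD, n = 4 each). Its call was lost without CDD replicate 1 or ND replicate 1, 3 or 4 (adjusted p = 0.0606 to 0.0984).

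The 8 brains did not contribute alike to these differences. Centred on each member's mean over the 8 brains, the mean log2 CPM of the 51 members was 0.15, 0.05, 0.06 and 0.11 in CDD brains 1 to 4 and -0.10, -0.02, -0.13 and -0.12 in ND brains 1 to 4. ND replicate 2 was the ND brain nearest to the CDD group, and CDD replicates 1 and 4 were farthest from the ND group. CDD replicate 1 was the highest of the 8 brains for 21 members and the lowest for 0. CDD replicate 4 was the highest for 19 members, among them *Orc1*, *Mcm2*, *Mcm5*, *Mcm6*, *Mcm10*, *Pola1*, *Rpa1*, *Lig1*, *Rrm1* and *Chaf1a*, and yet the lowest for 6, namely *Orc6*, *Gins2*, *Pole2*, *Rfc3*, *Rfc5* and *Dut*. The median listed gene length was 5229 bases for the 19 and 3246 bases for the 6. With gene length taken up by an offset per brain, 26 members were higher and 0 lower, against 20 without it. Over all genes the share called higher also grew with this offset, from 4.24% to 5.87%. On the ND side, ND replicate 3 was the lowest brain for 20 members, ND replicate 4 for 12 and ND replicate 1 for 11, whereas ND replicate 2 was the lowest for 0.

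**Figure D4:**
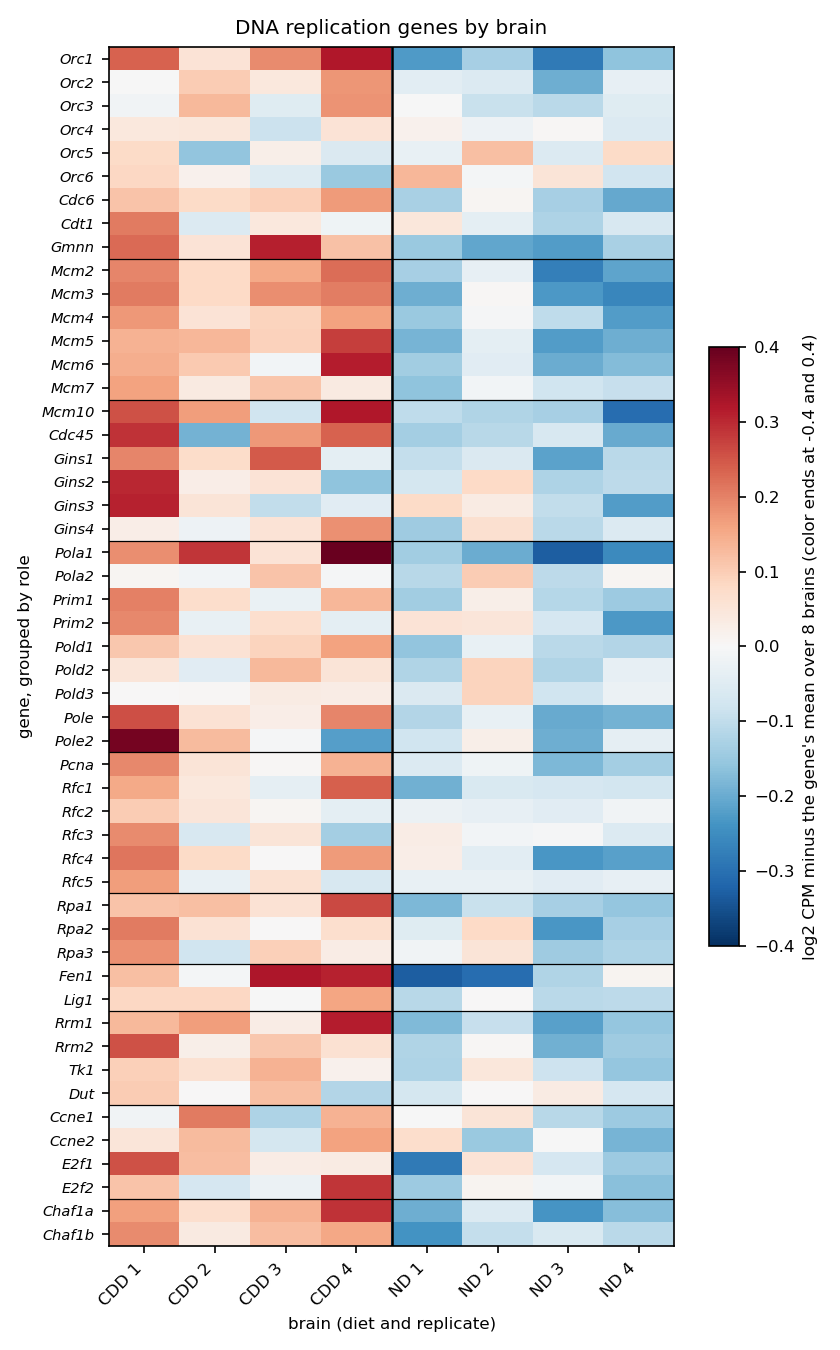
Log2 CPM of each of the 51 members (rows, grouped by role) in each brain (columns), after subtraction of the gene's mean over the 8 brains; red is above the mean and blue below it. CDD columns are mostly red and ND columns mostly blue, with ND replicate 2 the palest of the ND columns and CDD replicate 4 dark red for *Pola1*, *Mcm6* and *Rrm1* but blue for *Pole2*, *Gins2* and *Orc6*.

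The 20 called members and the 31 others were not alike in length or level. The median gene length was 4673.5 bases for the called and 3506 bases for the other members, and the median level was 11.1 and 7.43 FPKM. The log2 fold changes ran from 0.16 to 0.47 in the called and from -0.06 to 0.38 in the other members. Over the 51 members, the log2 fold change had a Spearman correlation of 0.106 with gene length and of -0.0899 with FPKM, as a description of genes that share the same 8 libraries. Called members were found in 9 of the 10 roles, and 14 of the 20 lay outside the MCM2-7 ring. On log2(FPKM + 1) with limma, 10 of the 20 calls were lost, those of *Orc1*, *Mcm6*, *Mcm7*, *Mcm10*, *Pole*, *Pcna*, *Rfc1*, *Lig1*, *Rrm2* and *Chaf1b*, with adjusted p from 0.0556 for *Chaf1b* to 0.106 for *Rfc1*. Just inside the threshold stood *Orc1* (edgeR adjusted p = 0.0412) and *Rfc1* (edgeR adjusted p = 0.0401), and just outside it *Gins1* (edgeR adjusted p = 0.0636) and *Prim1* (edgeR adjusted p = 0.0664).

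Promoter letters were counted in RefSeq windows from 250 bases before to 50 after the start, which exist for 42 of the 51 members. The E2F-type strings searched were TTTCGCGC, TTTGGCGC, TTTCCCGC and TTTGCCGC, on both strands. At least 1 of these strings stood in 16 of the 42 members (38.1%), where 704 of all 27025 genes of the promoter table had one (2.6%). It stood in 4 of the 5 MCM2-7 genes with a window, in 8 of 17 called members (47.1%) and in 8 of 25 others (32.0%). TTTGCCGC stood in 0 members, and TTTCCCGC, found in 8, was the most common of the 4. Within 150 bases before the start, 8 of 42 members (19.0%) held one of the strings, against 1.44% of all genes. The median log2 fold change was 0.17 for the 16 members with an E2F-type string in the whole window and 0.19 for the 26 without. For strings within 150 bases before the start, the order was the other way. It was 0.25 for the 8 members with a string and 0.17 for the 34 without. These differences were not tested.

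A CCAAT box stood in 25 of the 42 members (59.5%) and in 41.1% of all genes of the promoter table. Among members it stood in 14 of the 17 that were called (82.4%) and in 11 of the 25 that were not (44.0%). Within 150 bases before the start, the counts were 12 of 17 and 9 of 25, with 27.7% over all genes. All 5 MCM2-7 genes with a window held one, as did all 3 RPA genes. The median log2 fold change was 0.20 for members with a CCAAT box and 0.16 for those without, and no test was made of these counts. The windows of *Gmnn*, *Mcm4*, *Gins1*, *Gins2*, *Gins4*, *Prim2*, *Pole*, *Rfc2* and *Ccne2* were not analysed here.

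A further 69 genes of replication that are not members, such as origin-firing factors, fork protection factors, nucleotide enzymes and checkpoint genes, were tested in the same fit. Of these, 22 (31.9%) were higher in CDD brains and 0 lower, 60 were above 0 and 9 below, and the median log2 fold change was 0.14, in a range from -0.29 to 0.37. At an unadjusted p under 0.05, 34 were higher and 3 lower, and the diets did not overlap in 22 genes higher and 2 genes lower in CDD brains. These last 2 were *Rbl2*, a pocket protein, and *Donson*, an origin-firing factor, with log2 fold changes of -0.16 and -0.15 (edgeR adjusted p = 0.0657 and 0.134), named here after their values were seen. Log2 fold changes lay between 0.25 and 0.37 for those described here, which are among the 12 with the smallest p-values. They were *Hells* and *Uhrf1* (chromatin and DNA methylation on new DNA), *Topbp1* and *Ticrr* (origin firing), *Clspn*, *Atad5* and *Top1* (fork checkpoint, clamp unloading and untwisting), *Tyms* (nucleotide supply), *Rbl1* and *Tfdp2* (a pocket protein and an E2F partner) and *Ccna2* (cyclin A2). *Rrm2b*, a further small subunit of ribonucleotide reductase, had a log2 fold change of 0.11 (edgeR adjusted p = 0.449) with overlap between the diets. *Tyms*, which makes thymidylate, stood at 0.37 (edgeR adjusted p = 0.00477). *Topbp1* and *Ticrr*, which help *Cdc45* onto the ring, stood at 0.25 and 0.36 (edgeR adjusted p = 0.00317 and 0.0206). The count of these genes called higher was 22 without CDD replicate 2, 9 without ND replicate 1, 10 without ND replicate 3 and 9 without ND replicate 4. Over all genes, 3.15%, 1.52%, 1.04% and 1.42% were higher in these fits.

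Most of the mitosis genes and some of the progenitor markers were also higher in CDD brains, and the part of these cells in the result was not tested. Of 20 genes of mitosis, which act after S phase, 16 were higher and 0 lower (median log2 fold change 0.29), and their summed level was 1391 to 1683 CPM in CDD and 1118 to 1266 CPM in ND brains. Among 10 neural progenitor markers, 4 were higher and 0 lower, with summed levels of 1776 to 1943 CPM in CDD and 1592 to 1706 CPM in ND brains. *Nes*, an intermediate filament of progenitors, had a log2 fold change of 0.47 (edgeR adjusted p = 0.00344). The lowest log2 fold change of the 10 was that of *Fabp7*, at -0.04, and *Slc1a3* stood at 0.03. Of 6 intermediate progenitor markers, 3 were higher and 0 lower, with sums of 486 to 550.1 CPM in CDD and 451 to 505 CPM in ND brains, which overlapped. Their log2 fold changes ran from -0.08 for *Insm1* to 0.46. The sums of 10 neuron markers overlapped as well, at 7215 to 7978 CPM in CDD and 7528 to 7906 CPM in ND brains, with 0 higher and 2 lower, *Snap25* (-0.23) and *Gap43* (-0.18).

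Markers of blood, vessels and other cells were also measured. The 8 erythroid markers summed to 144 to 255 CPM in CDD and 52.7 to 116 CPM in ND brains, with 2 higher, the embryonic globin genes *Hbb-y* and *Hba-x* (log2 fold changes 2.24 and 1.67), and the other 6 not past the test. The erythroid sum was 231, 255, 144 and 154 CPM in CDD brains 1 to 4, which were the highest brains for 21, 1, 7 and 19 replication genes. Most of each of these sums came from *Hbb-y*, at 165, 189, 93.8 and 115 CPM. The part of blood in the result was not tested. Of 7 endothelial markers 1 was lower (243 to 259.6 CPM in CDD and 262 to 274 CPM in ND brains), and of 8 markers of microglia and macrophages 1 was lower (64.9 to 73.4 and 72.7 to 84.0 CPM). Of 6 meningeal markers 1 was higher and 2 lower (448 to 498 and 475 to 568 CPM). Of 5 choroid plexus markers 1 was higher and 0 lower (206 to 502 and 304 to 343 CPM). Of 5 markers of oligodendrocyte precursors, 2 were lower and 0 higher (92.0 to 106 and 114 to 132 CPM).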

How the data were processed

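RNA from 8 E14.5 WT brains, 4 per diet, was analysed, grouped by the maternal diet in the labels. The authors deposited raw counts per gene and brain, a signal obtained by dividing those counts by a size factor of each library, and FPKM values made from that signal and their listed gene length. The submitters' processing notes name HISAT2 2.0.5, featureCounts 1.5.0-p3 and DESeq2 1.20.0. The genome build, the annotation and the strand setting of the counting are not given in the sources used here. Columns with the authors' own fold changes and p-values were not used.

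Counts were filtered with filterByExpr (minimum count 10, minimum total 15) of edgeR 4.0.16, scaled by TMM and tested with its robust quasi-likelihood test, diet being the single term. P-values were adjusted by the Benjamini-Hochberg method over all 19367 genes tested, with a threshold of 0.05. All 51 members passed the filter. The lowest member count of 60 sets the loosest precision, and the common biological coefficient of variation was 0.0814. The fit was tested on simulated data. Work was done in R 4.3.3 (limma 3.58.1, DESeq2 1.42.0) and Python 3.11.15 (matplotlib 3.10.9, SciPy 1.17.1, NumPy 2.4.6, pandas 2.3.3).

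Values in every brain are given for the member with the smallest p-value in each role and for called members among the 10 largest changes, and for a few contrasts beside them (*Orc6*, *Pola2*, *Fen1* and *Cdc6*) that were picked after their values were seen. A gene of the wider replication list is counted but not reported here by name. Members and lists were chosen with earlier results of these data known. Overlap of exons and shared strings of 100 bases were taken from GENCODE M21, and promoters from RefSeq on GRCm38.p6, a build that differs from the authors' coordinates. Alternatives were DESeq2, limma-voom, RLE and upper-quartile scaling, a filter of at least 10 counts per brain or none, an offset for gene length (loess span 0.3), a block on replicate number, these last 2 together, *Xist* as a covariate, stricter thresholds, FPKM with a pseudocount of 1, and each brain left out.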

Additional observations from a re-analysis of the deposited data

Results flagged for a closer look

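In groups of 4 brains, a brain was singled out where its gap to the nearest other brain exceeded Dixon's 95% critical share of the range of the group. Of 102 groups (51 members in each diet) 7 met this, where about 1 in 20, or 5.1, would by chance. Values are log2 CPM. In ND brains, *Orc2* was low in replicate 3 (4.68, the others 4.82 to 4.84), *Mcm10* was low in replicate 4 (3.69, the others 3.86 to 3.89), *Rfc1* was low in replicate 1 (5.500, the others 5.62 to 5.63) and *Lig1* was high in replicate 2 (6.22, the others 6.11 to 6.12). In CDD brains, *Orc4* was low in replicate 3 (5.71, the others 5.84 to 5.85), *Mcm3* was low in replicate 2 (5.85, the others 5.96 to 5.98) and *Pola2* was high in replicate 3 (5.003, the others 4.88 to 4.90).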

How the results depend on the processing

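The count of replication genes lower in CDD brains was 0 in every setting run. The count of those higher was 18 to 26 with DESeq2 (23), limma-voom (18), RLE and upper-quartile scaling, either filter, the gene length offset (26) and *Xist* as a covariate (24). The share of all genes called higher was 4.24% in the main fit. It was 3.25% with DESeq2, 3.36% with limma-voom, 4.14% with RLE and 3.86% with upper-quartile scaling. With no filter it was 3.36%, and 4.71% with at least 10 counts per brain. The offset gave 5.87% and *Xist* 4.51%. Members called higher numbered 9 at an adjusted p under 0.01 and 0 at a change of at least 1.5-fold. On FPKM with a pseudocount of 1 they numbered 10. Of the other replication genes, 9, 0 and 6 were higher in these 3 settings. Over all genes, 211 (1.09%), 39 (0.201%) and 214 (1.1%) were higher, and 477, 174 and 519 were called in either direction. With a brain left out, 9 to 24 members and 9 to 26 of the other replication genes were higher. Over all genes, 204 to 1222 were higher and 471 to 2495 were called in either direction. These counts were lowest without ND replicate 1, 3 or 4. The median log2 fold change of the members stayed between 0.16 and 0.21. The members without overlap, all higher in CDD brains, numbered 22 to 29 over these settings. Over all genes this share was taken in the main fit alone (7.65%), so the range has no background beside it. Leaving a brain out can hardly create overlap, so the count without overlap cannot show whether the result rests on single brains.

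Diets share replicate numbers. The deviations of same-numbered brains from the mean of their diet had correlations of 0.105, -0.133, 0.117 and 0.232. Those of other pairs ran from -0.25 to 0.214. For CDD replicates 1, 3 and 4 the same-numbered ND brain correlated most, and for CDD replicate 2 it correlated least. Whether a number stands for a shared batch is not labelled and cannot be told from these values. With the replicate number as a block, 19 members were higher, *Orc1* being lost (adjusted p = 0.059), and 25 with the block and the length offset together. Over all genes, 842 (4.35%) and 1093 (5.64%) were higher in these fits.

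The calls of *Mcm2*, *Mcm3*, *Mcm5*, *Pola1*, *Rpa1*, *Rrm1* and *Chaf1a* held with each of the 8 brains left out and under all 11 other settings at this threshold, and that of *Mcm6* was lost on FPKM (adjusted p = 0.0561). The log2 fold change of *Rfc3* turned to -0.034 without CDD replicate 1, and was up to 0.069 with other brains left out. Standard errors of 0.043 to 0.15 on the log2 scale limit what 4 brains a diet can resolve for single members, most of all for *Fen1*.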
